A study of Mus musculus with 9 samples.

Results

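The comparison described here is 72 h of doxycycline (Dox) against no Dox in MLL-AF9 leukemia cells, followed across 22180 genes. It used 6 of the 9 samples of the series directly, 3 labelled Dox 72 h and 3 labelled control. The remaining 3 samples, labelled Dox 48 h, entered the estimate of spread, and their values are given for only some genes. A gene described without them may have reached its 72 h level by 48 h. Genes were taken as all probe sets with 1 gene symbol in the platform annotation, 23521 of the 41345 probe sets on the array, and the 1082 genes with more than 1 such probe set were represented by the one with the highest mean over the 9 arrays.

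Mouse Lin- marrow cells had been transduced with a retrovirus carrying the human MLL-AF9 fusion gene and GFP, and they also carried Oct4, Sox2, Klf4 and c-Myc (OSKM) behind the tetO promoter, which is active only in the presence of Dox. The MLL-AF9-OSKM cells were grown in sub-lethally irradiated C57BL/6J recipients. Dox was given in the drinking water after the leukemia was established, and control recipients received none. Leukemia cells were sorted from the spleen by flow cytometry, and total RNA of each sample was read on 1 Affymetrix Mouse Gene 2.0 ST array. Both groups carry the fusion gene and the silent or induced cassette, so an effect of the drug itself and an effect of OSKM cannot be told apart. No age of the animals is given in the sources used here. Replicates are described as biological, but whether 1 animal gave 1 sample is not stated, and the p-values therefore refer to the variation among these arrays, which may be partly technical. The arrays hold RNA of the cells still present in the spleen at 72 h, and in such bulk RNA fewer cells of a type and less RNA per cell cannot be told apart.

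MLL-AF9 turns myeloid progenitors into blasts that resemble granulocyte and monocyte progenitors and carry granule proteins such as elastase and proteinase 3. Cells that sense interferon signal through JAK kinases to a transcription factor complex that contains STAT2 and IRF9. It binds interferon-stimulated response elements (ISREs) before genes for antiviral proteins, for the ISG15 protein tag and for antigen presentation. Interferon gamma acts mainly through gamma-activated sites (GAS).

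Before any comparison, the arrays were set against what their labels say. Of 8 genes that mark such myeloid blasts, Ptprc (CD45), Itgam (CD11b), Itgb2 (CD18), Spi1 (PU.1), Hoxa9 and Meis1 lay at or above the 94.7th percentile of genes on mean signal and did not pass the test between control and 72 h (adjusted p from 0.336 to 0.968). Csf1r lay at the 93.5th percentile and was higher at 72 h (1.0, adjusted p = 0.0046), and Csf2rb lay at the 62.5th percentile with a difference of -0.40 (adjusted p = 0.107). Replicate 3 stood apart from replicates 1 and 2 in both groups. In the Dox 72 h group the 9 measured T cell markers had a mean log2 signal of 4.42, 4.28 and 5.36 in replicates 1, 2 and 3, and in the controls of 4.07, 4.14 and 4.70. The 7 measured platelet and megakaryocyte markers gave 4.82, 4.86 and 6.12 at 72 h and 4.43, 4.47 and 5.05 in the controls. Both lists were thus highest in replicate 3 of each group. The 28 immunoglobulin and T cell receptor gene segments on the array showed the same, with means of 5.32, 5.18 and 6.26 at 72 h and 4.10, 4.22 and 5.64 in the controls. T cell and platelet markers had 0 of 9 and 0 of 7 members past the test, and their medians were 0.33 and 0.55 on the log2 scale against 0.01 over all genes. Of 11 NK cell markers only Klrk1 and of 10 B cell markers only Cd79b passed, the latter in 2 of the 9 fits without 1 array (adjusted p up to 0.121, without control replicate 1). Most uncalled markers of these types also leaned up. The mean was higher at 72 h for 10 of 11 NK cell, 10 of 10 B cell and 7 of 7 platelet and megakaryocyte markers. It was also higher for 5 of 7 plasma cell, 4 of 5 erythroid, 7 of 9 conventional and 7 of 9 plasmacytoid dendritic cell markers. Mast cells and basophils had 6 of 10, eosinophils 3 of 6, red pulp macrophages 7 of 12, endothelial cells 6 of 10 and stromal cells 5 of 10. Sdc1 (plasma cells) and Bst2 (plasmacytoid dendritic cells) passed the test. Of the NK and B cell markers, 9 of 11 and 7 of 10 lay below the median signal of all genes. Of the 9 T cell markers 7 had a higher mean at 72 h than in the controls, from 0.31 for Cd8a to 1.05 for Cd3g, and Cd3e (-0.09) and Cd4 (-0.19) a lower one, none past the test (adjusted p from 0.182 to 0.893). The part of such cells in the results that follow was not tested. The counts and the genes of the naming rule were also fitted without each of the 9 arrays in turn.

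**Figure D1:**
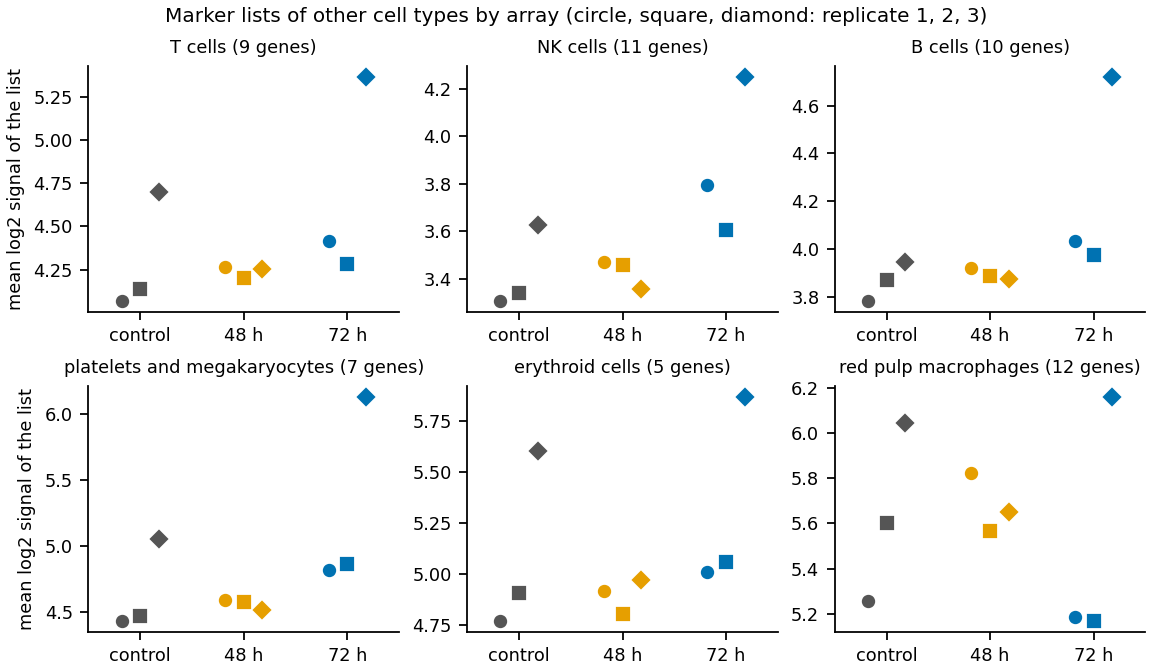
Mean log2 signal of 6 marker lists of other cell types (vertical axis) on each of the 9 arrays, by group (horizontal axis), with the number of measured genes in brackets and 1 symbol per replicate. Replicate 3 (diamond) is the highest array of the control group and of the Dox 72 h group in every panel.

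The later response was wide and moderate in size. A total of 393 genes were higher (1.77% of the 22180 tested) and 286 were lower (1.29%) at 72 h than in control, at an adjusted p under 0.05 from limma with Benjamini-Hochberg adjustment over all probe sets. The shares of 1.77% and 1.29% are the background to every list count given below. In each of these 679 genes the 3 Dox 72 h arrays did not overlap the 3 control arrays. Among all genes, 2544 had every 72 h array above every control and 2339 had every 72 h array below, and at an unadjusted p under 0.05 the counts were 2042 and 1765. The median size of the change was 0.72 on the log2 scale among the rises and 0.64 among the falls. Rises over 1 on the log2 scale, a doubling of signal, numbered 114, and falls of that size 52. The standard error of a fold change had a median of 0.101 over all genes, and the smallest called changes were 0.29 among the rises and 0.31 among the falls.

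The share of rises depended on the scaling of the arrays. Of the calls, 57.9% were rises with the deposited values and 73.3% (510 rises and 186 falls) after each array was centred on its median, which moved the median of all genes from 0.01 to 0.10 on the log2 scale. Every array carried weight in the counts. Without control replicate 1, 2 or 3 the rises numbered 110, 140 and 263 and the falls 87, 99 and 144. Leaving out Dox 72 h replicate 1, 2 or 3 gave 253, 168 and 199 rises and 181, 134 and 140 falls. Leaving out Dox 48 h replicate 1, 2 or 3 gave 307, 218 and 278 rises and 229, 165 and 157 falls. Of the 134 named genes past the test, 66 stayed past it in all 9 of these fits. With 3 arrays a group, an exact two-sided permutation test of a single gene cannot give a p below 0.1, so every call rests on the model fitted across all genes.

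**Figure D2:**
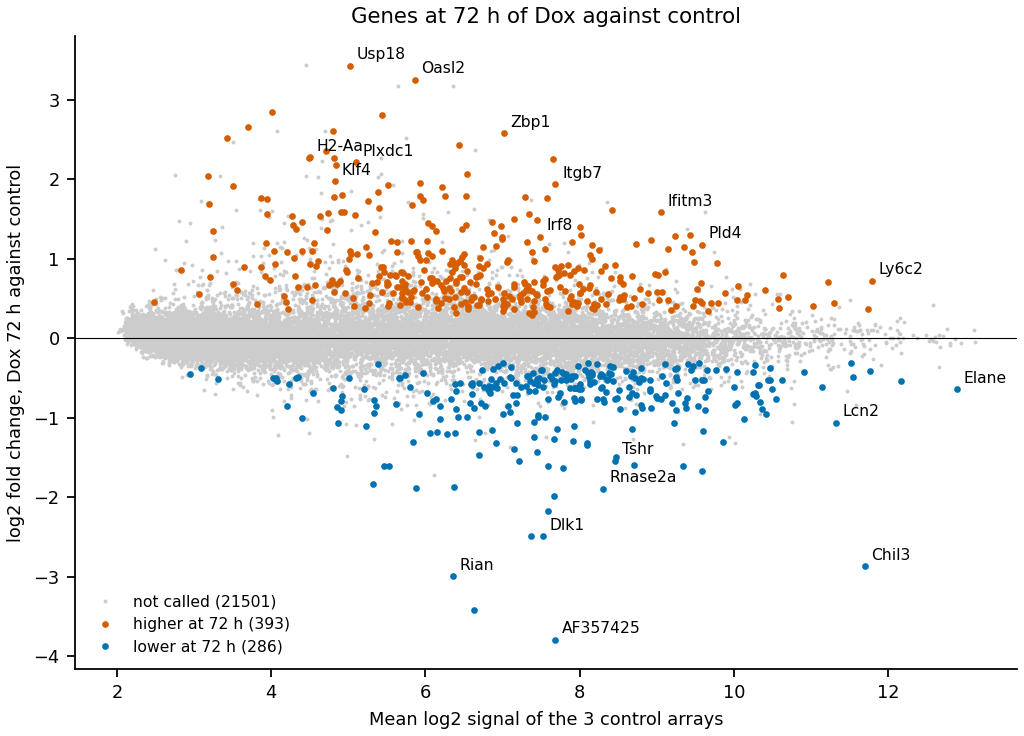
The log2 fold change at 72 h of Dox against control (vertical axis) of each of the 22180 genes against its mean log2 signal over the 3 control arrays (horizontal axis), with 393 genes higher in orange, 286 lower in blue and all others in grey. Usp18 (3.43) and Oasl2 (3.25) are the highest called genes, and AF357425 (-3.80) is the lowest.

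Of the 4 genes of the cassette, Klf4 rose. Its log2 signal was 4.73, 5.13 and 4.63 in the controls and 6.80, 6.89 and 6.71 at 72 h, a 3.92-fold rise (log2 fold change 1.97 ± 0.129, SE, adjusted p = 0.000827, limma). All 3 arrays at 72 h lay well above the controls and below the 48 h arrays, which read 7.92, 7.88 and 7.74. Pou5f1 (Oct4) gave a log2 fold change of 0.23 (adjusted p = 0.53), Sox2 of 0.05 (adjusted p = 0.76) and Myc of -0.07 (adjusted p = 0.82), none past the test. Sox2 read 2.95, 2.95 and 2.96 at 72 h, among the dim probe sets of the array. Whether these probe sets also read the transcripts of the cassette is not given in the sources used here. The pluripotency network beyond the cassette had 0 of 15 measured members past the test and a median of 0.04, and epithelial genes had 0 of 12 and a median of 0.00. Of these, 13 of the 15 and 8 of the 12 had a mean signal below the median of all genes, where a change is hard to see.

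The highest rises included many genes of the interferon response. Among interferon signal and factor genes, 4 of 12 rose and 0 fell, against 1.77% of all genes called higher, and the median was 0.58. Irf7, which amplifies type I interferon production, had log2 signals of 6.03, 6.17 and 7.11 in the controls and 8.85, 8.79 and 8.98 at 72 h. The 72 h arrays lay close together and 5.40-fold above the controls on average (2.43 ± 0.311, adjusted p = 0.01). Irf7 stayed past the test in all 9 fits without 1 array, but not with the replicate number fitted as a block (adjusted p = 0.0541, limma). With that replicate block 1 gene of the list was called. Irf8, a factor of monocyte and dendritic cell fate that also serves interferon signalling, read 7.47, 7.54 and 7.45 in the controls and 8.57, 8.75 and 8.97 at 72 h (1.28 ± 0.127, adjusted p = 0.00432). Stat2 and Irf9, members of the ISRE-binding complex, rose by 0.96 ± 0.137 and 1.13 ± 0.173 on the log2 scale. Stat2 lost its call without control replicate 1 and Dox 72 h replicate 2 (adjusted p of 0.0602 and 0.0517), and Irf9 in 4 of the 9 fits (adjusted p up to 0.0857, without control replicate 1). Irf1, the main interferon gamma responsive factor, gave 1.49 ± 0.319 without passing (adjusted p = 0.0551).

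Receptors of interferon changed by less. Ifnar1, a chain of the type I interferon receptor, read 9.19, 9.17 and 9.08 in the controls and 9.62, 9.63 and 9.64 at 72 h (0.48 ± 0.0592, adjusted p = 0.00857). Ifngr2 and Il10rb, chains of the interferon gamma and interleukin 10 receptors, rose by 0.49 and 0.45, whereas Ifngr1, the ligand-binding chain of the interferon gamma receptor, fell by 0.31. Of these 4 genes only Ifnar1 stayed past the test in all 9 fits, and it too was lost with the replicate block (adjusted p = 0.0533, limma). Ifngr1 was past it in none of them (adjusted p up to 0.119, without control replicate 2) and was also lost after median centring (0.132), Il10rb in 2 (adjusted p up to 0.0995, without control replicate 1) and Ifngr2 in 6 (adjusted p up to 0.0689, without control replicate 2).

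Of 17 sensors of foreign or misplaced nucleic acid 7 rose and 0 fell, with a median of 0.56. Dhx58 (LGP2), a RIG-I-like sensor, read 5.88, 5.85 and 6.50 in the controls and 7.34, 7.45 and 7.68 at 72 h (1.41 ± 0.186, adjusted p = 0.0113). Mavs, the adaptor of RIG-I-like sensors, read 7.17, 7.11 and 7.18 and then 7.75, 7.86 and 7.79 (0.65 ± 0.0919, adjusted p = 0.014). Sting1, the adaptor of cytosolic DNA sensing, rose by 1.05 ± 0.151 and Adar, which edits double-stranded RNA, by 0.56 ± 0.0755. Zbp1, a sensor of left-handed nucleic acid that can start necroptosis, had one of the largest rises in the list and one of the widest spreads. It read 6.29, 6.61 and 8.14 in the controls and 9.48, 9.95 and 9.34 at 72 h (2.58 ± 0.495, adjusted p = 0.0398). Control replicate 3 lay near the 72 h arrays, and Zbp1 was past the test in 2 of the 9 fits without 1 array (adjusted p up to 0.13, without control replicate 1). Ifi204 and Ifi205, of the DNA-binding p200 family, rose by 2.52 and 1.20 and kept their calls in 4 and 3 of the 9 fits (adjusted p up to 0.0946 and 0.118, without control replicate 1). Dhx58 and Adar lost the call only without control replicate 1 (0.0514 and 0.0588), Mavs without control replicates 1 and 2 and Dox 72 h replicate 2 (up to 0.0619), and Sting1 without control replicate 1 and Dox 72 h replicate 2 (0.0735 and 0.0545). The 7 calls became 0, 3 and 7 without control replicate 1, 2 or 3, 4, 3 and 4 without Dox 72 h replicate 1, 2 or 3, and 6, 5 and 7 without Dox 48 h replicate 1, 2 or 3. With the replicate block 1 sensor was called.

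Antiviral effectors gave the longest list of calls, 12 of 20 higher, 0 lower and a median of 1.0. Trim30a, an interferon-induced TRIM protein, had the smallest p of the list. Its log2 signal was 4.86, 5.07 and 5.12 in the controls and 6.12, 6.15 and 6.08 at 72 h, 2.15-fold higher (adjusted p = 0.00263). Oasl1, which in mouse restrains Irf7 translation, read 4.93, 4.82 and 5.07, then 5.46, 5.39 and 5.16 at 48 h and 6.39, 6.24 and 6.93 at 72 h (1.58 ± 0.175, adjusted p = 0.00611). Its 48 h arrays lay near the controls (adjusted p = 0.50 against control) and its 72 h arrays well above both. The difference of 72 h from 48 h, 1.19, did not pass the test (adjusted p = 0.056). Other members had risen by 48 h, when 5 of the list were called higher and the median was 0.76. At 48 h the means were 6.93 for Ifit1, 7.44 for Oas3 and 5.91 for Trim30a. At 72 h they were 7.41, 7.71 and 6.12. Ifit1, which binds viral RNA caps, rose 6.10-fold, from 4.41, 4.44 and 5.55 to 7.56, 7.26 and 7.40 (adjusted p = 0.0116). Oas3, an oligoadenylate synthetase that activates RNase L, rose 3.35-fold (adjusted p = 0.00647), and Ifitm3, which blocks viral entry, 3.0-fold (adjusted p = 0.0275). Oasl2 had the second largest rise of all called genes, 9.48-fold, with control values of 5.48, 4.83 and 7.27 and 72 h values of 9.0, 9.24 and 9.08. Its control replicate 3 was far above the other controls, and it kept the call in 2 of the 9 fits without 1 array (adjusted p up to 0.149, without control replicate 1). Ifit1 lost its call without control replicate 1 (0.0529), and Ifitm3 and Bst2 (tetherin, 3.44-fold higher) kept theirs in 4 and 3 fits (up to 0.106 and 0.113). Trim30a, Oasl1, Oas3 and Tor3a stayed past the test in all 9. The list had 4, 5 and 11 calls without control replicate 1, 2 or 3, 7, 5 and 5 without Dox 72 h replicate 1, 2 or 3, and 9, 5 and 11 without Dox 48 h replicate 1, 2 or 3. With the replicate block it had 4.

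Among ISG15 and ubiquitin-like genes 7 of 11 rose and the median was 1.5. Usp18, which removes ISG15 from proteins and dampens interferon receptor signalling, had the largest rise of the called genes. It read 4.57, 4.45 and 6.05 in the controls and 8.20, 8.32 and 8.84 at 72 h, 10.8-fold higher (3.43 ± 0.483, adjusted p = 0.0137). Even control replicate 3 lay below every 72 h array by more than 2 log2 units. Without control replicate 1, control replicate 2 or Dox 72 h replicate 3 the adjusted p was 0.0667, 0.0544 and 0.0516. Trim21, a cytosolic antibody receptor and ubiquitin ligase, read 6.63, 6.74 and 6.74 and then 7.67, 7.77 and 7.69 (1.01 ± 0.103, adjusted p = 0.00462), and it kept its call in all 9 fits. Parp14 and Parp12, which transfer ADP-ribose, rose by 1.79 and 1.5, and Ube2l6, the conjugating enzyme of ISG15, by 1.64. Parp14 lost its call without control replicate 1 (0.0504), and Parp12 and Ube2l6 kept theirs in 3 of the 9 fits (up to 0.136 and 0.112, without control replicate 1). Isg15 itself gave 2.04 ± 0.514 without passing (adjusted p = 0.0885). The list had 1, 2 and 7 calls without control replicate 1, 2 or 3, 3, 3 and 2 without Dox 72 h replicate 1, 2 or 3, and 7, 3 and 7 without Dox 48 h replicate 1, 2 or 3. With the replicate block it had 1. Of 7 measured Schlafen genes, which restrict growth and viral translation, 3 rose, and 1 was called without control replicate 1 or 2 or any 1 of the Dox 72 h replicates. Slfn5 read 4.15, 4.21 and 4.45 in the controls and 5.92, 5.58 and 5.94 at 72 h, 2.91-fold higher (adjusted p = 0.00473), and it kept its call in all 9 fits. Slfn8 and Slfn2 rose by 0.67 and 0.58 and kept their calls in 3 and 4 (adjusted p up to 0.0769 without control replicate 2 and 0.109 without control replicate 1).

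**Figure D3:**
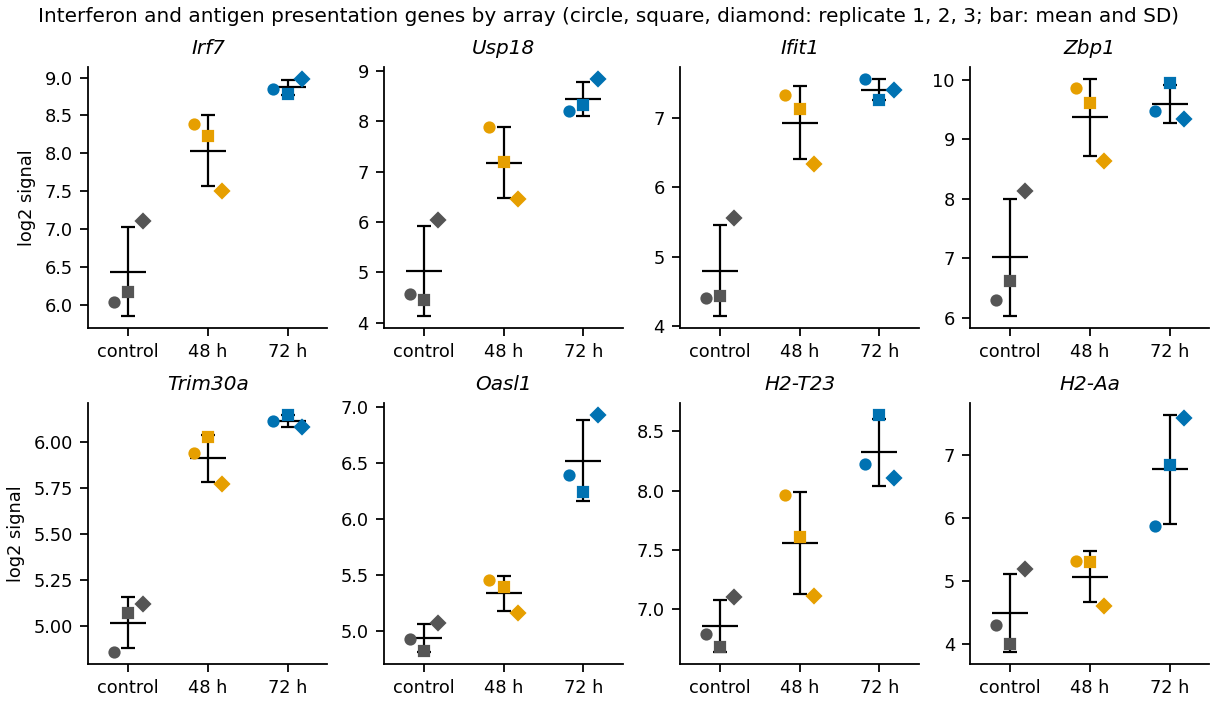
Log2 signal (vertical axis, scaled per panel) of 6 interferon-stimulated genes and 2 MHC genes in the control, Dox 48 h and Dox 72 h groups, with 1 symbol per replicate and the mean and SD of 3 arrays. In every panel the 3 arrays at 72 h lie above the 3 controls, and control replicate 3 is the highest control.

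Interferon gamma targets gave large values with few calls. Of 19 measured GTPases and chemokines, 2 passed the test, and the median was 1.71, the highest of the lists in this comparison. In 15 of the 19 every 72 h array lay above every control, against 2544 of all 22180 genes. Gbp9, a guanylate-binding protein, read 4.05, 4.23 and 5.17 in the controls and 6.50, 7.22 and 6.53 at 72 h (2.27 ± 0.442, adjusted p = 0.0421). Cxcl9, a chemokine for activated T cells, read 4.71, 4.70 and 5.03 and then 6.85, 7.44 and 6.94 (2.27 ± 0.46, adjusted p = 0.0473). In both genes the 72 h arrays lay more than 1 log2 unit above the highest control. Gbp3 (1.56, adjusted p = 0.0547), Ifi44l (1.12, adjusted p = 0.0634) and Gbp10 (2.23, adjusted p = 0.088) fell short of the test. Gbp9 and Cxcl9 each kept the call in 2 of the 9 fits without 1 array (adjusted p up to 0.146 and 0.153, without control replicate 1). The list had 0 calls without control replicate 1 or 2, Dox 48 h replicate 2, and Dox 72 h replicate 1 or 2, and also 0 with the replicate block.

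Antigen presentation genes of both MHC classes included rises and no falls. For class I, which shows peptides to CD8+ T cells, 7 of 17 genes rose and the median was 1.09. Every 72 h array lay above every control in 15 of 17, against 2544 of all 22180 genes. H2-T23 (Qa-1), a nonclassical class I molecule, read 6.79, 6.68 and 7.10 in the controls and 8.23, 8.64 and 8.10 at 72 h, 2.76-fold higher (adjusted p = 0.0207). Psmb10 and Psmb8, catalytic subunits of the immunoproteasome, rose by 1.28 ± 0.225 and 0.65 ± 0.122. Tap1, a subunit of the peptide transporter, rose by 1.24 ± 0.249. These genes kept their calls in 3, 3 and 2 of the 9 fits (adjusted p up to 0.113, 0.133 and 0.156, without control replicate 1). The classical gene H2-K1 gave 1.09 ± 0.236 (adjusted p = 0.0575). The 7 calls became 0, 0 and 10 without control replicate 1, 2 or 3, 1, 0 and 2 without Dox 72 h replicate 1, 2 or 3, and 4, 1 and 7 without Dox 48 h replicate 1, 2 or 3. With the replicate block 0 remained. H2-T23 kept its call in 6 of the 9 fits without 1 array (adjusted p up to 0.0902, without control replicate 1). Near-identical members of the H2, Oas, Gbp, Slfn, Ly6, Ms4a and Clec4 families can share probe targets, so values of single members are uncertain to that extent.

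For class II, which shows peptides to CD4+ T cells, 4 of 11 genes rose and the median was 0.80. Ctss, the protease that trims the invariant chain, read 8.68, 8.74 and 8.75 in the controls and 9.72, 9.84 and 10.17 at 72 h, 2.28-fold higher (adjusted p = 0.00612), and it kept its call in all 9 fits. H2-DMa, which helps load peptides, rose by 0.79 ± 0.128 and H2-Ob, which opposes it, by 0.89 ± 0.157. H2-Aa, a class II chain, read 4.30, 4.01 and 5.20 in the controls and 5.88, 6.85 and 7.6 at 72 h (2.27 ± 0.463, adjusted p = 0.0475). Its highest arrays in both groups were replicate 3, which also had the highest B and T cell marker levels, and it kept the call in 1 of the 9 fits (adjusted p up to 0.157, without control replicate 1, and 0.111 without Dox 72 h replicate 3). H2-DMa and H2-Ob kept theirs in 5 and 3 (up to 0.0946 and 0.101). The 4 calls became 1, 1 and 3 without control replicate 1, 2 or 3, 4, 2 and 2 without Dox 72 h replicate 1, 2 or 3, and 3, 2 and 2 without Dox 48 h replicate 1, 2 or 3. With the replicate block 1 remained. Ciita, the class II transactivator, gave 0.32 ± 0.0744 (adjusted p = 0.0708).

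Promoters of the interferon genes were read for the letters of their response elements, since so many of these genes moved together. RefSeq promoter windows of 300 bases (250 before to 50 after the start, build GRCm38.p6) were found for 16918 of the 22180 genes. The ISRE core GAAANNGAAA, searched on both strands, lay in 3.44% of all 32851 windows, in 3.32% of the 20520 windows of measured genes, in 9.38% of the 405 windows of genes higher at 72 h and in 4.23% of the 307 windows of genes lower. Of the 24 called genes of the interferon lists that had a window, 11 held it, and it lay in 43.3% of their 30 windows. These lists were made of genes of the interferon response, so a high share was likely whichever members were called. Uncalled members of the lists were not counted, so the share says nothing about the 72 h calls. The GAS core TTCNNNGAA lay in 8.3% of all windows, 7.87% of those of measured genes, 9.14% of those of genes higher, 8.79% of those of genes lower and 16.7% of those of the interferon genes. A CACCC-type box, CCNCNCCC, the kind of letters that Klf factors bind, lay in 49.5% of all windows, 57.4% of the 20520 windows of measured genes, 63% of those of genes higher and 70% of those of genes lower. These are matches of letters and were not tested as binding sites.

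The 150 bases before the start are shown for 4 called antiviral effectors with an ISRE core in that stretch and for Irf7, which rose 5.40-fold and has none of these letters there. Capitals mark the ISRE core on either strand, as its reverse complement where it lies on the other strand, and each sequence runs 5′ to 3′ along the strand of the gene.
Ifit1 (chr19:34640739-34640888, plus strand): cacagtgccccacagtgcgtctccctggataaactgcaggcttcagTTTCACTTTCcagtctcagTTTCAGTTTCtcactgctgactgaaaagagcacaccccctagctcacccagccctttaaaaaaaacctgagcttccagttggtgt
Oas3 (chr5:120777660-120777809, minus strand): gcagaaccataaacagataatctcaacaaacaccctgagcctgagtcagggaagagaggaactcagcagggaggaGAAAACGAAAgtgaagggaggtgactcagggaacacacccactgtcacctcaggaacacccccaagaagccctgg
Bst2 (chr8:71537473-71537622, minus strand): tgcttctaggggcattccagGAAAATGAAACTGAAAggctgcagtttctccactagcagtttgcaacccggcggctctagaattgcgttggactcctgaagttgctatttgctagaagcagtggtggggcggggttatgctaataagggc
Trim30a (chr7:104465194-104465343, minus strand): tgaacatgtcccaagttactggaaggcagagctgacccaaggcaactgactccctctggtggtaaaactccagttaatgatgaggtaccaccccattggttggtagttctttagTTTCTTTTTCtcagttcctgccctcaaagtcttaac
Irf7 (chr7:141266425-141266574, minus strand): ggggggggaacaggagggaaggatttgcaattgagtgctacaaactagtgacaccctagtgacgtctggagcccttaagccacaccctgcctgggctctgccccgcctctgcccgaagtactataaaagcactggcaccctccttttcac
Ifit1 has 2 cores and Bst2 has 2 that overlap, whereas Oas3 and Trim30a (the first of its 2 windows) have 1 each. On the log2 scale Ifit1 rose by 2.61 ± 0.348, Bst2 by 1.78 ± 0.312, Oas3 by 1.74 ± 0.198 and Trim30a by 1.1 ± 0.0941.

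Besides Klf4, the rises with the smallest p included Plxdc1, Itgb7, Il10ra and Pld4. Plxdc1, a plexin domain receptor, read 5.08, 5.01 and 5.21 in the controls and 7.33, 7.46 and 7.13 at 72 h, 4.63-fold higher (2.21 ± 0.0963, adjusted p = 8.96e-05). Itgb7, an integrin chain that binds MAdCAM-1 or E-cadherin, read 7.61, 7.78 and 7.66 and then 9.65, 9.73 and 9.49, 3.83-fold higher (adjusted p = 0.00036). Il10ra, the ligand-binding chain of the interleukin 10 receptor, read 5.68, 5.83 and 5.99 and then 7.44, 7.45 and 7.63 (adjusted p = 0.000827). In all 3 genes the gap between groups was several times the range within either. Their means were 6.92, 9.50 and 7.84 at 48 h and 7.31, 9.62 and 7.51 at 72 h. Pld4, an endosomal exonuclease that limits nucleic acid sensing by Toll-like receptors, rose 2.26-fold, from 9.61, 9.60 and 9.53 to 10.67, 10.87 and 10.73 (adjusted p = 0.000827). Pld4 had a mean of 10.76 at both 48 h and 72 h (adjusted p = 0.989 for the difference). Lsp1, Tmem184b and Slc25a4 rose 1.73-fold, 1.77-fold and 1.70-fold. All of these kept their calls in each of the 9 fits without 1 array.

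Monocyte and macrophage genes rose in 6 of 30 cases, against 1.77% of all genes, with a median of 0.22. Ccr2, the receptor that brings inflammatory monocytes into tissue, read 8.0, 7.94 and 7.83 in the controls and 8.78, 8.80 and 8.72 at 72 h, 1.79-fold higher (adjusted p = 0.00296). Csf1r, the receptor for macrophage colony-stimulating factor, doubled, from 8.06, 8.20 and 8.20 to 9.04, 9.12 and 9.32 (1.0 ± 0.101, adjusted p = 0.0046). Neither gene differed past the test from its 48 h level (-0.15 and -0.02). Ace and Cd36, a peptidase and a lipid scavenger of patrolling monocytes and macrophages, were 4.51-fold and 4.09-fold higher than in control (adjusted p = 0.00141 and 0.000876), both below their 48 h levels. Lyz2 (lysozyme) and Ly6c2, the marker of classical monocytes, rose by 0.94 and 0.72 and kept their calls in 2 of 9 fits each (adjusted p up to 0.113 and 0.0926, without control replicates 1 and 2). The marker list of red pulp macrophages, the resident macrophages of the spleen, had 0 of 12 members past the test and means of 5.19, 5.17 and 6.16 at 72 h and 5.26, 5.6 and 6.04 in the controls, which overlap.

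Families of myeloid surface receptors split by member, against 1.77% of all genes called higher and 1.29% lower. Of 12 Ms4a genes, 3 rose and Ms4a3 fell. Ms4a4c read 4.55, 4.41 and 5.18 in the controls and 6.86, 6.98 and 7.37 at 72 h, 5.12-fold higher (adjusted p = 0.0048), and Ms4a6b and Ms4a6c were 2.96-fold and 1.95-fold higher. Ms4a3, a marker of granulocyte and monocyte progenitors, read 10.001, 10.18 and 10.19 and then 8.96, 8.99 and 9.37, 2.02-fold lower (adjusted p = 0.00647). Of 16 C-type lectin receptors, 4 rose and 1 fell. Clec4a3 read 5.65, 5.84 and 6.28 in the controls and 7.71, 7.70 and 7.71 at 72 h (1.78 ± 0.144, adjusted p = 0.00212). Its mean at 48 h was higher still, 8.55. Clec7a (dectin-1), the receptor for fungal beta-glucan, rose 2.30-fold, and Clec4a1 and Clec4n 3.82-fold and 2.56-fold, whereas Clec4a2 was 1.76-fold lower. Clec4n lost its call without control replicates 1 and 2 (0.0835 and 0.0651), and Clec4a2 kept its call in 3 of the 9 fits (adjusted p up to 0.0949, without control replicate 2). The other Ms4a and Clec genes named here kept theirs in all 9.

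Adhesion, migration and clearance genes rose in smaller numbers, against 1.77% of all genes called higher and 1.29% lower. Of 19 integrin and selectin genes 3 rose, Itgb7, Itgal (CD11a, 1.57-fold) and Selplg, the selectin ligand PSGL-1 (1.32-fold). Of 15 chemokine and formyl peptide receptors 3 rose, Ccr2, Cxcr4, the marrow retention receptor (1.40-fold, adjusted p = 0.00801), and Ccr1 (1.52-fold). Lysosome genes had 6 of 22 members higher and 1 lower, with 3 to 5 higher in the fits without 1 array. Npc2, which hands over cholesterol in lysosomes, read 9.47, 9.54 and 9.70 in the controls and 10.17, 10.25 and 10.35 at 72 h (0.69 ± 0.0852, adjusted p = 0.00881), and Psap, the precursor of the saposins, rose 1.46-fold. Cd63, a tetraspanin of late endosomes and granules, read 8.88, 8.84 and 9.06 and then 7.89, 8.13 and 8.14, 1.83-fold lower (adjusted p = 0.0116). Complement genes had 3 of 16 higher, with Cfp (properdin) 1.73-fold, the membrane inhibitor Cd59a 2.72-fold and Cfb (factor B) 2.81-fold. Of these genes Itgal kept its call in 6 of 9 fits, Selplg in 5, Ccr1 in 4 and Cfb in 1 (adjusted p up to 0.0667, 0.0902, 0.0902 and 0.135, each without control replicate 1), and the others in all 9. Selplg, Ccr1, Cfb, Cxcr4 and Cd63 were not called with the replicate block (adjusted p of 0.0507 for Cxcr4 and 0.0583 for Cd63, limma).

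Costimulation and innate signalling added a few members each, against 1.77% of all genes called higher. Cd48, a ligand of 2B4 and CD2, read 7.91, 7.86 and 7.95 in the controls and 8.94, 9.02 and 9.37 at 72 h, 2.31-fold higher (adjusted p = 0.00471). Cd86, the ligand of CD28, was 1.66-fold higher (adjusted p = 0.014, and 0.0681 without control replicate 1). Ticam2 (TRAM), the adaptor that couples TLR4 to interferon production, read 4.41, 4.22 and 4.22 and then 5.57, 5.67 and 5.87, 2.68-fold higher (adjusted p = 0.00528). Unc93b1, the chaperone of nucleic acid sensing Toll-like receptors, rose 1.49-fold, with its call kept in 5 of 9 fits (adjusted p up to 0.0902, without control replicate 1). Tlr4 gave -0.93 ± 0.198 and its partner Ly96 (MD-2) 0.95 ± 0.202, both at an adjusted p of 0.054. Of 21 NF-kB genes, Nfkbie and Nfkb2 rose by 0.80 and 0.58 and kept their calls in 2 and 1 fits (adjusted p up to 0.11 and 0.162, without control replicate 1).

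The 2 lists of neutrophil granule genes had the most falls of the lists by number, though not by share. Of the 15 measured primary granule and promyelocyte genes, 6 were lower and 0 higher, with a median of -0.34 against 0.01 over all genes, and the share of all genes called lower was 1.29%. Elane (neutrophil elastase) read 12.82, 12.88 and 12.96 in the controls and 12.23, 12.23 and 12.27 at 72 h, 1.56-fold lower (adjusted p = 0.00471). Prtn3 (proteinase 3) was 1.45-fold lower and Serpinb1a, an inhibitor of such proteases, 1.56-fold lower. Rnase2a, an eosinophil-type ribonuclease, read 7.91, 8.27 and 8.72 and then 6.30, 6.28 and 6.65, 3.71-fold lower (adjusted p = 0.0075). Gfi1, the transcription factor that favours granulocytes over monocytes, read 8.61, 8.70 and 9.13 and then 7.89, 7.99 and 7.90, 1.84-fold lower (adjusted p = 0.0161, and 0.0547 without Dox 72 h replicate 3). The list had 6 calls in each of the 9 fits without 1 array, although not always of the same genes, since Gfi1 was not called in that fit. The other 5 kept their calls in all 9. Mpo (myeloperoxidase) gave -0.84 ± 0.208 without passing (adjusted p = 0.0845).

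Secondary granule and mature neutrophil genes were lower in 6 of 22 cases and higher in 1, with a median of -0.49. Lcn2 (lipocalin 2), which binds bacterial iron carriers, read 11.25, 11.39 and 11.33 in the controls, 10.75, 10.97 and 10.81 at 48 h and 10.27, 10.36 and 10.15 at 72 h. The 3 groups did not overlap and stepped down with time. Its 72 h level was 2.09-fold below control (adjusted p = 0.00234), and the step from 48 h, -0.58, did not pass (adjusted p = 0.056). Chil3 (Ym1), a chitinase-like secreted protein, read 11.67, 11.58 and 11.84 in the controls and 8.78, 9.64 and 8.07 at 72 h, 7.30-fold lower (adjusted p = 0.0202). The spread of its 72 h arrays was wide, and without control replicate 1 the adjusted p was 0.0825, the highest of the 5 fits in which it lost the call. Wfdc21 was 3.96-fold lower (adjusted p = 0.00613) and S100a9, a subunit of calprotectin, 1.75-fold lower (adjusted p = 0.014, kept in 6 of 9 fits and up to 0.0588 without control replicate 2). Stfa3, a cystatin, was the exception, 2.97-fold higher (adjusted p = 0.0303, kept in 3 of 9 fits and up to 0.0923 without control replicate 1). The 6 falls became 2, 2 and 3 without control replicate 1, 2 or 3, 3, 5 and 2 without Dox 72 h replicate 1, 2 or 3, and 5, 5 and 4 without Dox 48 h replicate 1, 2 or 3.

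Among myeloid transcription factors the called genes were Klf4, Irf8 and Cebpb (1.37-fold, adjusted p = 0.0149) on the higher side and Gfi1 on the lower, of 22 measured. Irf8, Klf4 and Cebpb are factors of the monocyte line, and Cebpb lost its call without control replicate 2 and Dox 72 h replicate 2 (0.0568 and 0.0518). Of 24 genes of the MLL-AF9 program and of stem or progenitor cells, Cd93 and Men1 rose and Eya1 fell, and the median was -0.04. Among all genes 1.77% were called higher and 1.29% lower. Counts as small as these in both lists describe single genes and not the lists. Cd93, a surface marker of MLL-rearranged leukemia stem cells, read 8.57, 8.49 and 8.51 in the controls and 9.31, 9.27 and 9.14 at 72 h, 1.64-fold higher (adjusted p = 0.00394). Men1 (menin), the cofactor that tethers MLL fusion proteins, was 1.41-fold higher, and Eya1, a phosphatase co-activator, 1.44-fold lower, with calls kept in 5 and 3 of 9 fits (adjusted p up to 0.0806 and 0.0999, without control replicate 1). Kit, the stem cell factor receptor, read 7.51, 7.67 and 7.91 and then 7.13, 6.87 and 7.30 at 72 h, a difference of -0.60 ± 0.132 that did not pass (adjusted p = 0.0607).

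**Figure D4:**
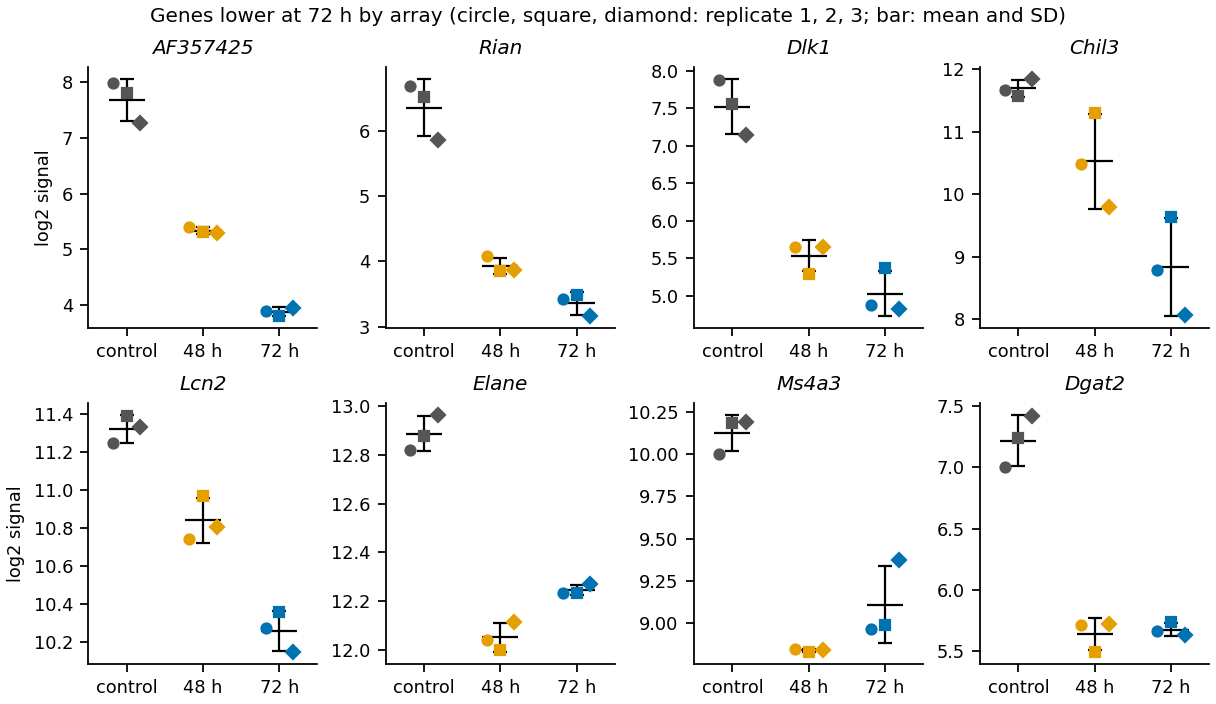
Log2 signal (vertical axis, scaled per panel) of 8 genes lower at 72 h in the control, Dox 48 h and Dox 72 h groups, with 1 symbol per replicate and the mean and SD of 3 arrays. AF357425 and Lcn2 step down from control to 48 h to 72 h without overlap, whereas Elane and Ms4a3 are lower at 48 h than at 72 h.

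The largest falls lay in the imprinted Dlk1-Dio3 region of chromosome 12, where the maternal copy gives long noncoding RNAs and the small nucleolar RNAs cut from them, and the paternal copy gives Dlk1. Of its 9 measured genes, 4 fell and the median was -0.70. AF357425, a small nucleolar RNA, read 7.98, 7.80 and 7.26 in the controls, 5.41, 5.31 and 5.29 at 48 h and 3.89, 3.80 and 3.95 at 72 h, 13.9-fold lower than control (-3.80 ± 0.165, adjusted p = 8.96e-05). AF357355, another, was 10.7-fold lower (adjusted p = 0.00223). Rian, a long noncoding RNA that hosts small nucleolar RNAs, read 6.69, 6.52 and 5.86 and then 3.43, 3.48 and 3.16 at 72 h, 7.97-fold lower (adjusted p = 0.000876). Dlk1, a transmembrane relative of Notch ligands, read 7.87, 7.55 and 7.14 and then 4.89, 5.37 and 4.83, 5.62-fold lower (adjusted p = 0.00263). In all of these genes every 72 h array lay more than 1 log2 unit below every control, and all 4 kept their calls in each of the 9 fits without 1 array. AF357425 (chr12:109636012-109636080) and AF357355 (chr12:109654627-109654697, RefSeq, GRCm38.p6) lie within the span of Rian (chr12:109603945-109661716), so these 3 probe sets may not be independent. Meg3, the first noncoding RNA of the region, gave -0.28 ± 0.164 (adjusted p = 0.44) on a dim probe set.

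Falls outside the Dlk1-Dio3 region included Dgat2, Lipg, Tshr and Rflnb. Dgat2, which makes triglyceride, read 7.0, 7.24 and 7.41 in the controls and 5.67, 5.74 and 5.63 at 72 h, 2.91-fold lower (adjusted p = 0.00141). Lipg, an endothelial-type lipase, was 4.49-fold lower (adjusted p = 0.00376). Tshr, the thyrotropin receptor, read 8.20, 8.43 and 8.74 and then 7.02, 6.95 and 6.77, 2.91-fold lower (adjusted p = 0.00263). In these 3 genes the 72 h arrays were more than 1 log2 unit below every control. Means of Dgat2, Lipg and Tshr were 5.642, 5.616 and 6.571 at 48 h and 5.677, 5.415 and 6.915 at 72 h. Rflnb, a filamin-binding protein, was 2.22-fold lower (adjusted p = 0.00124), Sipa1l1, a Rap GTPase activator, 2.15-fold lower and Dnajc6 (auxilin), which uncoats clathrin vesicles, 2.36-fold lower. Klf7, a relative of Klf4, read 6.52, 6.35 and 6.4 and then 5.57, 5.38 and 5.36, 1.98-fold lower (adjusted p = 0.00234). Another probe set of Klf7, with the lowest signal, gave -0.12 (adjusted p = 0.685). Olfm4, a granule glycoprotein, was 3.17-fold lower, and Slco4c1, an organic anion carrier, 5.6-fold lower, with adjusted p of 0.0504 without control replicate 1 and 0.0533 without control replicate 2. The other genes of this paragraph kept their calls in all 9 fits without 1 array.

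Metabolic lists had few calls, against 1.77% of all genes called higher and 1.29% lower. Of 20 glycolysis and hypoxia genes, Vegfa and the glucose carrier Slc2a3 were 1.74-fold and 1.86-fold lower (adjusted p = 0.00996 and 0.0155). Neither was called with the 6 arrays of the comparison alone or with a replicate block, where the adjusted p reached 0.0546 for Vegfa and 0.0598 for Slc2a3. Slc2a3 kept its call in 5 of 9 fits (up to 0.0606, without control replicate 2). Of 15 cholesterol synthesis genes Sc5d, which acts late in the pathway, was 1.46-fold lower (adjusted p = 0.0118), and the list had a median of -0.19. Of 14 efflux and scavenging genes, Cd36 and the exporter Abcg1 (1.65-fold) rose, Abcg1 in 4 of 9 fits (adjusted p up to 0.11, without control replicate 1). Of 14 antioxidant genes Nqo1, a quinone reductase, read 4.82, 5.22 and 5.05 in the controls and 6.05, 6.11 and 6.10 at 72 h, 2.08-fold higher (adjusted p = 0.00612), and Gclm, a subunit of the enzyme that starts glutathione synthesis, was 1.66-fold lower (adjusted p = 0.0118). Sc5d and Gclm were not called with the replicate block (adjusted p = 0.0583 for both, limma). Nuclear genes of oxidative phosphorylation had 0 of 24 past the test and a median of 0.13, with 22 of 24 above 0.

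**Figure D5:**
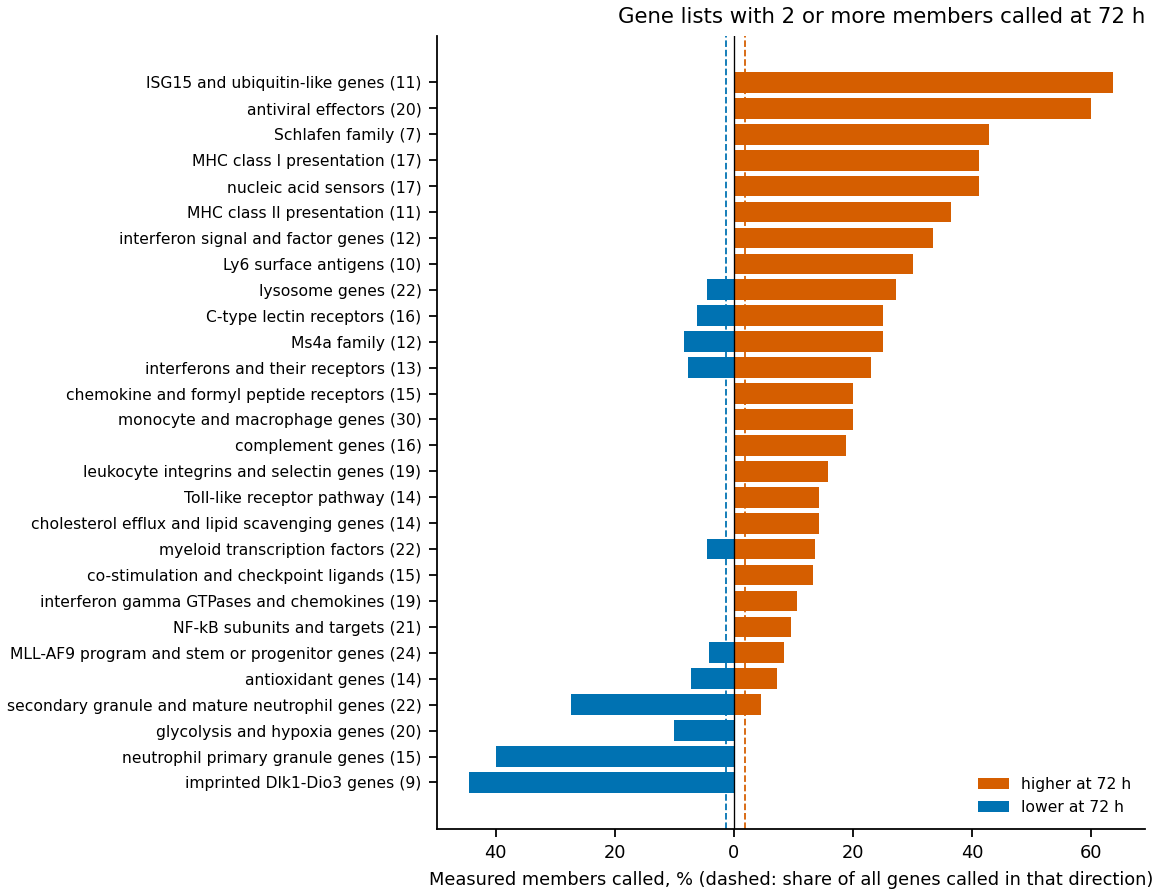
Share of the measured members of each gene list that was called higher (orange, to the right) or lower (blue, to the left) at 72 h, for pathway lists with 2 or more calls, with the number of measured members in brackets. The dashed lines mark the share of all genes called higher (1.77%) and lower (1.29%).

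Cell death, chromatin and proliferation lists had at most 1 call each. Among 20 p53 target genes none passed the test, with a median of 0.04, and the smallest p belonged to Sesn2 (0.74 ± 0.175, adjusted p = 0.0754), Btg2 (1.22 ± 0.301, adjusted p = 0.0828) and Sesn1 (0.65 ± 0.173, adjusted p = 0.102). The BCL2 family had 0 of 16, and Bbc3 (PUMA) read 3.85, 3.61 and 3.73 in the controls and 3.82, 3.73 and 4.17 at 72 h (0.18 ± 0.138, adjusted p = 0.57). Its arrays overlapped. Of 28 caspase, death receptor and necroptosis genes, only Mlkl, which perforates the membrane in necroptosis, rose (1.32-fold, adjusted p = 0.0364), and it kept the call in 1 of the 9 fits (up to 0.128, without control replicate 1). The histone H3K9 methylation enzymes had 0 of 20 and a median of -0.03. Kdm3a, an H3K9 demethylase, gave 0.16 ± 0.0878 (adjusted p = 0.42) and Setdb1, an H3K9 methyltransferase, -0.19 ± 0.074 (adjusted p = 0.26). DNA replication (0 of 22, median -0.03), mitosis (0 of 21, median -0.16), cytosolic ribosomal proteins (0 of 39, median 0.10) and ribosome biogenesis with MYC targets (0 of 25, median -0.12) had no call. In 10 of the 21 mitosis genes every 72 h array lay below every control, against 2339 of all 22180 genes. A p that misses the threshold does not show that these genes were unchanged.

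The 48 h samples showed how much of the 72 h response was already present. Of the 393 genes higher at 72 h, 182 were also called higher at 48 h, and 275 were farther from control at 72 h than at 48 h. Of the 286 lower genes, 109 were also called lower at 48 h and 240 were farther from control at 72 h. At 48 h the median log2 difference from control was 0.577 for the 393 higher genes and -0.423 for the 286 lower ones. The median sizes of their changes at 72 h were 0.721 and 0.636. A missing call at 48 h therefore does not mean that a gene was unchanged then. The share of all genes called at 48 h is not given here. Both sets of calls share the control arrays. The genes were chosen by their 72 h test, which by itself favours a greater distance from control at 72 h. These counts therefore do not show that the response grew with time. Set directly against 48 h, 2 genes of all 22180 were higher at 72 h (0.00902%) and 63 were lower (0.284%), so most later steps did not pass that test. Of the 679 called genes, 22 also differed from 48 h. Many of them had been farther from control at 48 h. The mean of Nt5e (CD73), which makes adenosine, was 4.4 in the controls, 8.37 after 48 h and 5.85 after 72 h (-2.51 ± 0.164 against 48 h, adjusted p = 0.00211), and that of Cd109, a GPI-anchored protein, was 3.24, 7.40 and 4.26 (-3.14 ± 0.137, adjusted p = 0.000416). Both kept the difference in all 9 fits.

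Fn1 and Pi16 lay above the control mean at 48 h and below it at 72 h. At 48 h Pi16 passed the test against control (adjusted p = 0.0296, limma) and Fn1 did not (adjusted p = 0.0746). Fn1 (fibronectin) read 9.33 on average in control, 10.35 at 48 h and 7.73 at 72 h, 3.03-fold below control (adjusted p = 0.0122) and 6.13-fold below 48 h (adjusted p = 0.00649), with the call against control kept in 8 of the 9 fits. Pi16, a peptidase inhibitor, was the 1 gene called in opposite directions, from 6.92 to 7.53 and then 6.29, with the call against control kept in 5 of the 9 fits. Klrk1 (NKG2D), an activating receptor of NK and T cells, was higher at 72 h than in control and than at 48 h. It read 3.90, 3.73 and 3.96 in the controls, 4.04, 3.78 and 3.63 at 48 h and 4.65, 4.83 and 4.81 at 72 h. The mean of the NK marker list, which includes Klrk1, ran from 3.60 to 4.25 among the 72 h arrays. The part of NK cells in this rise was not tested. The call of Klrk1 against 48 h was kept in 1 of the 9 fits (adjusted p up to 0.135). Its call against control was kept in all 9 but not with the replicate block (adjusted p = 0.0546, limma). Fn1, Pi16, Nt5e and Cd109 were named after their values were seen.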

How the data were processed

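Total RNA of sorted leukemia cells was measured in 9 samples (3 control, 3 Dox 48 h, 3 Dox 72 h), 1 array each, and all columns of the deposited table were mapped to samples by their labels. The authors deposited log2 values per probe set. They were used as deposited, although the sources name different steps behind them, RMA in the oligo package in the study's methods and MAS5 in the submitters' processing notes. Array medians ran from 3.71 to 3.87. Background correction can shrink the fold changes of dim probe sets. No detection call was used, and the array number limits precision.

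Groups were compared with limma 3.58.1 in R 4.3.3, with 1 mean per group over all 9 arrays, eBayes and Benjamini-Hochberg adjustment over all 41345 probe sets at a threshold of 0.05. Values after ± are standard errors of the model. Of the probe sets, 23521 had 1 symbol, 1820 had several and 16004 were not listed, and the last 2 kinds were tested but not named. Entrez identifiers of 23328 were found in RefSeq (GRCm38.p6). The named genes were the reprogramming factors, the 14 smallest p and the 10 largest changes per direction, the 8 largest among genes with a mean control signal of at least 6.759 (the brightest genes), up to 6 called members of each list with the smallest p (up to 3 where none was called) and genes the study discusses. Symbols in the style of predicted genes, small RNAs or odorant receptors took no rank. Irf1, Isg15, Gbp3, Ifi44l, Gbp10, H2-K1, Ciita, Mpo, Tlr4, Ly96, Meg3, Cd3e, Cd4, Cd8a and Cd3g were named from the lists after their values were seen. Members, lists (46 pathway and 13 marker lists) and rules were chosen with earlier results of these data known. Lists were described by counts and medians with no set test. A few genes of the lists are not analysed here. The fit was tested on simulated data. Alternatives covered normalization, centring, dim probe sets, the 6 arrays alone, eBayes with trend, a replicate block, the adjustment, the choice of probe set and each array left out.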

Additional observations from a re-analysis of the deposited data

Results flagged for a closer look

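The 72 h level of 22 genes called against control also differed from the 48 h level, by the direct comparison of the 3 Dox 72 h with the 3 Dox 48 h arrays in the same limma fit. All values are log2 differences of 72 h from 48 h.

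Among genes higher than control at both times, the difference was -3.14 for Cd109, -2.51 for Nt5e, -2.19 for the lectin Clec4a1, -1.67 for Cyp11a1, which starts steroid synthesis, -1.47 for Cd59a, -1.31 for Cd36 and -1.29 for Ace and for Cd86 alike. Klf4 gave -1.05, the glucose carrier Slc2a6 -0.83, Fam234a -0.61 and Cdc14b -0.52. Cd109, Nt5e, Cyp11a1 and Cd86 kept this call in all 9 fits without 1 array, Cd59a in 7, Cd36 in 5, Clec4a1 in 3, Klf4 and Slc2a6 in 2, Ace and Fam234a in 1 and Cdc14b in 0.

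Among genes lower than control at 72 h, the small nucleolar RNA AF357425 differed by -1.45 and Dennd4a by -0.67. Fn1 (-2.62), Dhrs9 (-1.61), Klf9 (-1.39), Pi16 (-1.24), Pmp22 (-1.17) and Emp1 (-0.82) had 48 h means above control and 72 h means below it. Of these only Pi16 was called higher than control at 48 h (adjusted p = 0.0296, limma). The others gave an adjusted p from 0.0746 (Fn1) to 0.642 (Pmp22) there. Fn1, Pi16 and Emp1 kept the call against 48 h in all 9 fits, AF357425, Dhrs9 and Klf9 in 2, and Dennd4a and Pmp22 in 1.

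The 2 genes higher at 72 h than at 48 h were Klrk1 (0.95, kept in 1 of 9 fits) and BC035044 (0.54, kept in 0). The calls of Dhrs9, Pmp22, Cdc14b and Klf9 against control were kept in 1, 2, 2 and 3 of the 9 fits. Genes outside the naming rule are listed here because of their values.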

How the results depend on the processing

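Counts of genes depended on the fit. With the 6 arrays of the comparison alone, 152 genes were higher and 83 lower. Median centring gave 186 lower genes, and against 48 h 1 gene higher. Removal of dim probe sets gave 4 genes higher and 108 lower than at 48 h. Quantile normalization gave 445 higher and 258 lower, of which 381 and 245 were also called with the values as deposited. The count of genes higher than control ran from 110 to 307 and of those lower from 87 to 229 over the 9 fits without 1 array. The count of genes higher at 72 h than at 48 h ran from 0 to 1 and of genes lower at 72 h than at 48 h from 13 to 41. The cause of these shifts was not tested, beyond the smaller number of arrays. Same-numbered replicates of control and 72 h deviated from their group means with correlations of 0.125, 0.0662 and 0.209. Differently numbered ones of these 2 groups gave -0.163 to 0.0597. Same-numbered replicates of control and 48 h gave -0.191, -0.0156 and -0.142. These correlations do not settle whether the numbers pair the samples. With a replicate block the counts were 111 higher and 74 lower than control, and 0 higher and 10 lower than 48 h.

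Direction was held by all named genes under all alternatives except Myc (0.020 with median centring and from -0.157 to 0.051 without 1 array, never past the test), Sdc1 (-0.044) and Cyp11a1 (-0.070), the last 2 only with the lowest instead of the highest probe set of the gene. Of the 134 named genes past the test, 84 stayed past it with the 6 arrays alone and 67 with the replicate block. Calls were lost for Klf7, Ly6k and Sdc1 with the lowest probe set, Ctsz and Ifngr1 with quantile normalization, Ifngr1 with median centring and Nfkb2 with the trended and robust eBayes fit. None of the 134 was lost with dim probe sets removed or with adjustment over only the 22180 probe sets that stand for a gene. Both settings adjust over fewer probe sets than the main fit, so the lack of losses says little.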

Other observations

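Protein-coding genes lower at 72 h spanned more of the genome than those higher. The median span of the RefSeq gene was 43.8 kb for the 270 lower genes, 19.5 kb for the 378 higher genes and 18.7 kb for all 18961 measured. Among genes with a mean control signal of at least 6.759 the medians were 42.8 kb (212 lower), 14.7 kb (171 higher) and 25.6 kb (5356 in all), so there the higher genes lay below the median of all genes and the lower genes above it. The difference was not tested.

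Probe sets that the platform annotation does not list leaned the other way from named genes. Higher signals at 72 h were called in 56 and lower signals in 224 of the 16004 unlisted ones, against 403 higher and 302 lower of the 23521 with 1 symbol. What these probe sets read is not known from the sources used here.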
